A study of Mus musculus with 6 samples.

Results

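The genes described here are the 8 members of the 2′-5′-oligoadenylate synthetase (OAS) family that have a row among the 13426 genes measured in mouse early LPre-B cells, the large pre-B stage of the bone marrow at which heavy chain genes are rearranged: *Oas1a*, *Oas1b*, *Oas1c*, *Oas1g*, *Oas2*, *Oas3*, *Oasl1* and *Oasl2*. They were chosen by symbol, through the Entrez IDs of the rows, and without use of their values. The annotation lists 12 *Oas* genes, and *Oas1d*, *Oas1e*, *Oas1f* and *Oas1h* were not analysed here.

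RNA was sequenced from bone marrow cells sorted as B220+ cells, negative for lineage markers, surface IgM and CD2, positive for CD43 and of high forward scatter. Control (Ctrl) cells came from Upf1 Flox/Flox, Mb1 +/+ mice, and *Upf1*-cKO cells from Upf1 Flox/Flox, Mb1 Cre/+ mice, with 3 libraries per group. Both groups thus carry the floxed alleles, and Cre is expressed from the B lineage locus Mb1 (*Cd79a*), so the cKO mice also have a changed *Cd79a* allele that the Ctrl mice lack. Mice were adults of both sexes, matched for age, on a C57BL/6 background, and the labels name no treatment.

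OAS proteins are enzymes of innate immunity that are made at low levels until type I interferon raises their transcription. On binding double-stranded RNA they join ATP into short chains with 2′-5′ linkages, called 2-5A. 2-5A is a second messenger of antiviral defence and is broken down by phosphodiesterases. OAS-like proteins share the fold but not always the enzyme activity. UPF1, the protein targeted in the cKO mice, is the RNA helicase at the centre of nonsense-mediated mRNA decay.

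All members lie on chromosome 5 of GRCm38.p6, in 2 clusters. *Oasl2* (chr5:114896926-114912245) and *Oasl1* (chr5:114923143-114937911) stand side by side. The other cluster runs from *Oas2* (chr5:120730333-120749886) and *Oas3* (chr5:120753098-120777684) through *Oas1c* (chr5:120800194-120812540) and *Oas1b* (chr5:120812635-120824163) to *Oas1g* (chr5:120876142-120887613) and *Oas1a* (chr5:120896256-120907544). *Oas1c*, on the minus strand, and *Oas1b*, on the plus strand, point away from each other with 94 bp between them. No member overlaps another annotated gene.

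Interferon reaches such genes through the factor ISGF3 and the IRF proteins, which bind the interferon-stimulated response element. RefSeq promoter windows of 300 bases, from 250 before to 50 after the start site, were given for 6 members, namely all but *Oas1b* and *Oas2*. The core of this element, searched here as GAAANNGAAA on both strands, was found in 4 of these 6 windows and in 3.44% of all 32851 promoter windows. The 80 bases around these matches are shown because they hold the matches in these 4 members. Each is written 5′ to 3′ on the strand of its gene, which is minus for all 4, with the matched bases in capitals.
*Oas1a*, chr5:120907498-120907577: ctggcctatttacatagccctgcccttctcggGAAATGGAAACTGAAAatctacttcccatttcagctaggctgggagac
*Oas1g*, chr5:120887584-120887663: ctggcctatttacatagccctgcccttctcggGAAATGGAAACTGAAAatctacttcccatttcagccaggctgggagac
*Oas1c*, chr5:120812581-120812660: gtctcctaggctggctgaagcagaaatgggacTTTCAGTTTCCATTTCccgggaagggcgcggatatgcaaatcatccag
*Oas3*, chr5:120777690-120777769: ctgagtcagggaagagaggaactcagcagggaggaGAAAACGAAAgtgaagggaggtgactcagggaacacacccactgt

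The *Oas1a* and *Oas1g* stretches were identical at 79 of 80 bases. Both hold the run of 16 bases GAAATGGAAACTGAAA, made of 2 overlapping core matches, starting 20 bases before the window's start site in *Oas1a* and 18 bases before it in *Oas1g*. That site lies 19 bases inside the gene as given above for *Oas1a*, so 15 of the 16 bases fall within the annotated gene, and at the gene's end for *Oas1g*. For *Oas1c* and *Oas3* it lies 26 and 25 bases inside, and their matches fall outside the gene. The *Oas1c* window holds the same run on the opposite strand, at positions -114 to -99. That places its last base 7 bases before the annotated start of *Oas1b*. The run occurred in 7 of the 32851 windows, and besides these 3 members the genes holding it were *Apol9a* and *Apol9b*. The longer form of the element, GAAANNGAAACT, which overlaps the core, was in 3 of 6 member windows and in 0.271% of all windows. *Oas3* had 1 core match, at positions -75 to -66. The STAT dimer motif TTCNNNGAA was in the *Oas1a* window only among the 6, and in 8.30% of all windows. The *Oasl1* and *Oasl2* windows held none of these letters. A match is a description of the sequence, and occupancy was not measured.

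Levels are given as normalised reads, the deposited values, which are reads plus 0.5, divided by the effective library size in units of 1e6 reads. Recovered reads totalled 9732498 to 11006834 per library. *Upf1* itself was not lower in the cKO-labelled libraries. It was at 241 ± 32.3 normalised reads in Ctrl and 297 ± 12.7 in cKO (mean ± SD, n = 3), which is 0.31 on the log2 scale (SE 0.089, adjusted p = 0.00696, limma). That row covers the whole gene, including the exons outside the loxP sites, and overlaps *Gdf1* and *Cers1*, so it does not measure the deletion. *Cd79a*, whose locus carries Cre, was at 221 ± 11.4 in Ctrl and 73.3 ± 1.85 in cKO-labelled libraries. All 9 B lineage markers reported here had a row, 4 called higher and 1 lower, beside 27.7% and 25.0% of all genes. Their sums were 1889 to 2135 in Ctrl and 2373 to 2547 in cKO-labelled libraries.

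Of the 8 members, 7 were called higher in cKO than in Ctrl and none was lower, at an adjusted p below 0.05 with limma on log2(value + 1) over all genes. Among all genes tested, 27.7% were called higher. The member without a call was *Oas1c*. The median log2 fold change was 2.0 over the 8 members and 0.01 over all genes. A log2 fold change of at least 2 was reached by 4 of the 8, *Oas3*, *Oasl1*, *Oas2* and *Oas1b*, against 1.14% of all genes. In all 8, every cKO-labelled library lay above every Ctrl library, which held for 30.9% of all genes. These shares describe the members with a row. The authors had removed genes with low values, and every row left exceeded 0.5 normalised reads in at least 3 libraries. *Oas1g* exceeded that level in 0 Ctrl libraries and *Oas2* in 2, so both are in the table through their cKO-labelled libraries.

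The summed level of the family was 26.2, 26.4 and 23.5 normalised reads in Ctrl 1, 2 and 3. It was 128, 88.2 and 114 in cKO 1, 2 and 3. The lowest cKO-labelled library thus stood well above the highest Ctrl library. The sum rose from 25.4 ± 1.60 to 110 ± 20 (SD, n = 3), 4.33-fold, with p = 0.1 by the exact two-sided permutation test over 20 assignments, the smallest p this design allows. Without *Oas1c* the sum was 5.46-fold higher. In such bulk samples, more cells of a type and more RNA per cell cannot be told apart.

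Markers of other cells differed between the groups in part. The counts below stand beside 27.7% of all genes called higher and 25.0% called lower. Of 8 neutrophil and granulocyte markers 4 were called higher and none lower, and their summed level was 14.1 to 114 in Ctrl and 314 to 443 in cKO-labelled libraries, with all 8 above 0 reads in every library. Ctrl 1 had the 114, against 18.1 in Ctrl 2 and 14.1 in Ctrl 3. Among the Ctrl libraries, Ctrl 1 was the highest for *Oas1c*, *Oas1g*, *Oas2* and *Oas3*. It was the lowest for *Oas1b*, *Oasl1* and *Oasl2* and lay between the others for *Oas1a*. Of 5 plasmacytoid dendritic cell markers 4 had a row and 2 were called higher, with sums of 3.38 to 6.06 in Ctrl and 7.21 to 9.07 in cKO-labelled libraries. The called ones were *Ccr9* (log2 fold change 0.80, adjusted p = 0.00954, limma) and *Cox6a2* (0.90, adjusted p = 0.00294, limma). *Cox6a2* had only 4, 0 and 5 reads in Ctrl and 11, 19 and 19 in cKO-labelled libraries. Among Ctrl libraries it exceeded 0.5 normalised reads in Ctrl 3 only, so it too is in the table through its cKO-labelled libraries. *Siglech*, at 2 to 6 reads in Ctrl and 5 to 11 in cKO-labelled libraries, and *Smim5* were not called. Of 6 monocyte and macrophage markers 4 had a row, 1 was higher and 1 lower, and the sums, 56.8 to 89.6 and 76.4 to 104, overlapped. Of 6 T and NK cell markers only *Nkg7* had a row, and of 4 erythroid markers only *Klf1*. Neither was called. Of 4 mature B cell markers 2 were higher and 1 lower, with sums of 228 to 231 in Ctrl and 57.6 to 67.6 in cKO-labelled libraries. The lower sum came from *Cd22* alone, at 207 ± 2.04 and 28.5 ± 6.24, while the means of *Ighd*, *Cr2* and *Fcer2a* were higher in cKO-labelled libraries. The part of such cells in the OAS levels was not tested.

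**Figure D1:**
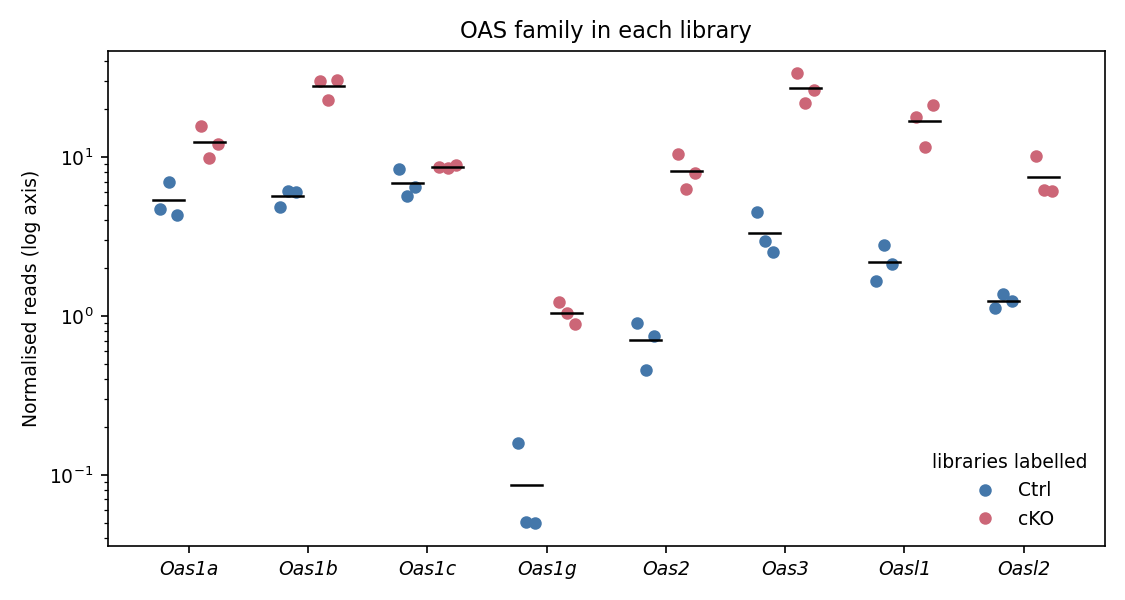
Normalised reads (log axis) of the 8 OAS genes in each of 3 Ctrl libraries (blue) and 3 cKO-labelled libraries (red), with the group mean as a bar. The groups are separate for every gene, narrowly for *Oas1c* (8.34 at the top of Ctrl, 8.52 at the bottom of cKO) and widest for *Oas2* and *Oas1g*.

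OAS3 is the largest synthetase of the family and a main maker of 2-5A. *Oas3* was at 4.51, 2.98 and 2.53 normalised reads in the Ctrl libraries and at 33.6, 22.0 and 26.3 in the cKO-labelled ones. It rose by 2.71 on the log2 scale (SE 0.19, adjusted p = 1.62e-09, limma), the largest value of the family with a pseudocount of 1. The group means of *Oas3* differed 8.16-fold, less than those of *Oas2* and *Oas1g*, and edgeR, DESeq2 and voom on the recovered reads also placed those 2 above it. The lowest cKO-labelled library was 4.86 times the highest Ctrl library.

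OAS2 is a synthetase built from repeated OAS units and anchored to membranes. *Oas2* was at 0.903, 0.455 and 0.745 in Ctrl, from only 4 to 8 reads per library. In the cKO-labelled libraries it was at 10.4, 6.27 and 7.97, from 69 to 106 reads. It rose by 2.42 on the log2 scale (SE 0.22, adjusted p = 4.16e-08, limma). The scale of log2(value + 1) understates such a low gene, whose group means differed 11.7-fold.

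The *Oas1* genes encode the smallest synthetases, and the mouse has several copies where humans have a single gene. *Oas1b* is the flavivirus resistance gene of the mouse, and many laboratory strains, C57BL/6 among them, carry a stop codon in it. RefSeq accordingly lists it as a transcribed pseudogene and GENCODE as a polymorphic pseudogene, with transcripts of 251 and 376 codons. *Oas1b* was at 4.83, 6.11 and 6.01 in Ctrl and 30.1, 22.9 and 30.3 in the cKO-labelled libraries. It rose by 2.11 on the log2 scale (SE 0.16, adjusted p = 2.76e-09, limma). The row sums all transcripts of the gene, so the 2 forms were not told apart.

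*Oas1c*, the neighbour of *Oas1b*, was the exception. It was at 8.34, 5.71 and 6.50 in Ctrl and 8.64, 8.52 and 8.89 in cKO-labelled libraries, so the groups came close without overlapping. The log2 fold change of 0.32 (95% interval -0.05 to 0.68, adjusted p = 0.134, limma) did not pass the test. Without Ctrl 1, the highest Ctrl library, it did, at 0.45 (adjusted p = 0.0463, limma), and 8 of 8 members were then called higher. It also passed at 0.50 (adjusted p = 0.0245, limma) when values were scaled to total reads, a scaling that moved the median of all genes from 0.01 to 0.19. The ratio of *Oas1b* to *Oas1c* within a library does not depend on scaling. It was 0.580, 1.07 and 0.924 in Ctrl and 3.49, 2.68 and 3.41 in cKO-labelled libraries, with no overlap.

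*Oas1a* and *Oas1g* encode active synthetases. *Oas1a* was at 4.73, 6.92 and 4.32 in Ctrl and at 15.7, 9.78 and 12 in the cKO-labelled libraries, a change of 1.09 on the log2 scale (SE 0.20, adjusted p = 0.000136, limma). Its ratio to *Oas1c* overlapped between groups, at 0.567 to 1.21 in Ctrl and 1.15 to 1.81 in cKO-labelled libraries. *Oas1g* was the rarest member, with 1, 0 and 0 reads in Ctrl and 12, 11 and 10 in cKO-labelled libraries. Pooled over libraries and set against depth, this is a ratio of 29.2, with an exact 95% interval of 4.89 to 1188 that covers counting error only. After the pseudocount it rose by 0.91 on the log2 scale (SE 0.21, adjusted p = 0.0014, limma). *Oas1a*, *Oas1c* and *Oas1g* are close copies, as the 2 promoter stretches above show for *Oas1a* and *Oas1g*, and how counting divided reads between such copies is uncertain.

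OASL1 lacks synthetase activity and is known in the mouse as a translational inhibitor of IRF7. *Oasl1* was at 1.65, 2.78 and 2.13 in Ctrl and 17.9, 11.6 and 21.2 in cKO-labelled libraries, a rise of 2.47 on the log2 scale (SE 0.21, adjusted p = 2.34e-08, limma). *Oasl2*, which lies next to it and encodes an OAS-like protein that keeps synthetase activity, was at 1.12, 1.36 and 1.24 in Ctrl and 10.2, 6.18 and 6.11 in cKO-labelled libraries. *Oasl2* rose by 1.89 on the log2 scale (SE 0.22, adjusted p = 8.79e-07, limma). The ratio of *Oasl1* to *Oasl2* overlapped between groups, at 1.48 to 2.04 in Ctrl and 1.76 to 3.47 in cKO-labelled libraries, the highest value being that of cKO 3.

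The cKO-labelled libraries had no single order across the members. cKO 1 was the highest of the 3 for 5 members and cKO 2 the lowest for 6, *Oas1a*, *Oas1b*, *Oas1c*, *Oas2*, *Oas3* and *Oasl1*. cKO 3 was highest for *Oas1b*, *Oas1c* and *Oasl1* and lowest for *Oas1g* and *Oasl2*. The coefficient of variation in the cKO-labelled libraries was 2.20% for *Oas1c* and 15.3% to 31.2% for the other 7.

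Levels of different genes were compared per kilobase of the longest coding transcript. In Ctrl the order by normalised reads per kilobase was *Oas1b* (3.08 ± 0.39), *Oas1c* (2.99 ± 0.59), *Oas1a* (2.82 ± 0.74), *Oasl1* (1.0 ± 0.26), *Oas3* (0.708 ± 0.22), *Oasl2* (0.397 ± 0.040), *Oas2* (0.177 ± 0.057) and *Oas1g* (0.0438 ± 0.032). The ranges of the first 3 overlapped, and so did those of *Oasl1* and *Oas3*. In the cKO-labelled libraries *Oas1b* stood apart at 15.1 ± 2.31. It was followed by *Oasl1* (7.75 ± 2.24), *Oas1a* (6.62 ± 1.57) and *Oas3* (5.78 ± 1.25), whose ranges overlapped. *Oas1c* (3.79 ± 0.083) came next, and *Oasl2* (2.40 ± 0.75), *Oas2* (2.07 ± 0.52) and *Oas1g* (0.530 ± 0.085) were below it, with overlapping ranges for *Oasl2* and *Oas2*.

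The make-up of the family per kilobase differed between the groups accordingly. *Oas1c* made up 20.8% to 32.6% of the family in Ctrl libraries and 7.49% to 10.5% in cKO-labelled ones. *Oasl1* made up 6.77% to 10.6% and then 15.0% to 20.9%, *Oas3* 5.10% to 8.57% and then 12% to 14.2%, and *Oas2* 0.959% to 2.04% and then 4.33% to 5.22%. *Oas1a*, although its level was higher, had a smaller share, 21.8% to 30.7% in Ctrl and 13.7% to 16.5% in cKO-labelled libraries. The share of *Oas1b* was 23.6% to 31.1% in Ctrl and 32.6% to 35.5% in cKO-labelled libraries. After division by length none of these ranges overlapped between groups, and shares in 1 library are bound to move together. Without division by length the ranges of *Oas1b* overlapped, at 18.4% to 25.5% in Ctrl and 23.6% to 26.7% in cKO-labelled libraries. The mean share of *Oas3* in cKO-labelled libraries was then 24.8% and that of *Oas1b* 25.4%, and in cKO 1 *Oas3*, at 26.3%, was above *Oas1b*, so the lead of *Oas1b* over *Oas3* depends on the length used.

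**Figure D2:**
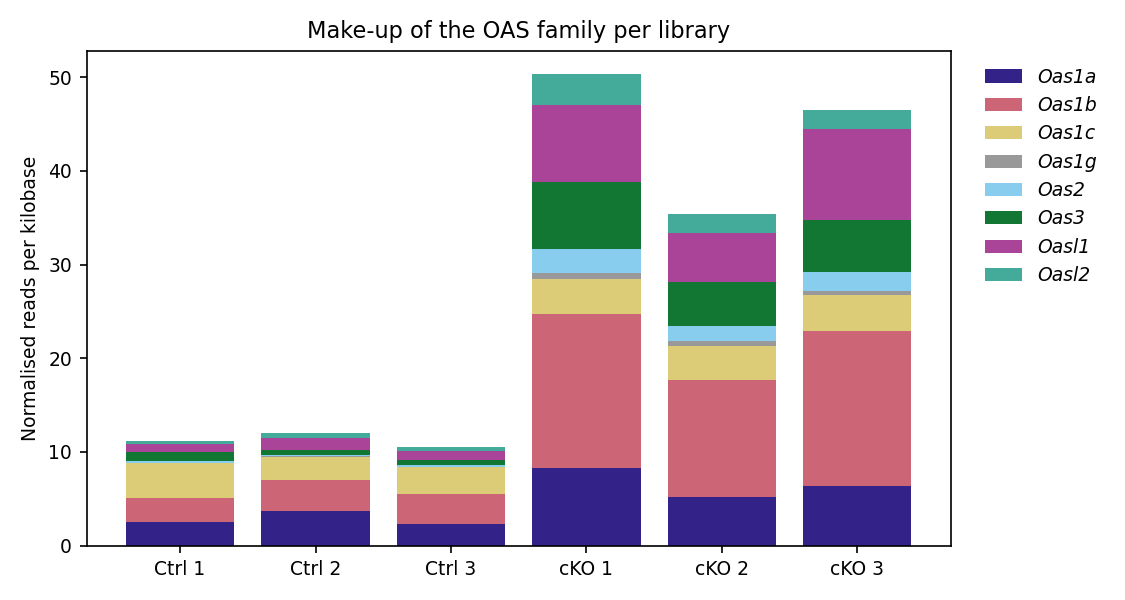
Stacked normalised reads per kilobase of longest coding transcript for the 8 OAS genes in each library. The cKO-labelled libraries stand at 35.4 to 50.3 in all, *Oas1b* is the largest part in each of them, and the band of *Oas1c* stays between 2.49 and 3.88 in all 6 libraries.

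The level of 2-5A depends on its breakdown as well as on the OAS enzymes. The 4 genes of the 2-5A list reported here are *Enpp1*, *Pde12*, *Akap7* and *Abce1*, the last of which is not a gene of 2-5A breakdown. Of these 4, 3 were called lower and none higher, against 25.0% of all genes called lower and 52.7% in either direction. The median log2 fold change of the 4 was -0.37. *Enpp1*, a phosphodiesterase that can cleave 2-5A and the cyclic dinucleotide of cGAS, was at 5.05, 7.83 and 4.92 in Ctrl and 2.39, 3.65 and 2.57 in cKO-labelled libraries. It fell by 0.83 on the log2 scale (SE 0.22, adjusted p = 0.00344, limma). *Pde12*, the mitochondrial enzyme that removes 2-5A, fell by 0.25 (adjusted p = 0.044, limma), and *Akap7*, which holds a 2-5A phosphodiesterase domain, fell by 0.49 with groups that overlapped (adjusted p = 0.0495, limma). Both calls lie at the threshold and were lost under several alternatives. *Pde12* lost it without Ctrl 2, Ctrl 3, cKO 1 or cKO 2 (adjusted p 0.0744 to 0.172, limma), and *Akap7* without Ctrl 1, Ctrl 3, cKO 1 or cKO 2 (adjusted p 0.107 to 0.176, limma). *Abce1*, a ribosome recycling factor, was at 211 ± 33.8 and 191 ± 13.5 (log2 fold change -0.13, 95% interval -0.35 to 0.08, adjusted p = 0.281, limma), and without Ctrl 1 it passed at -0.27 (adjusted p = 0.00547, limma).

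**Figure D3:**
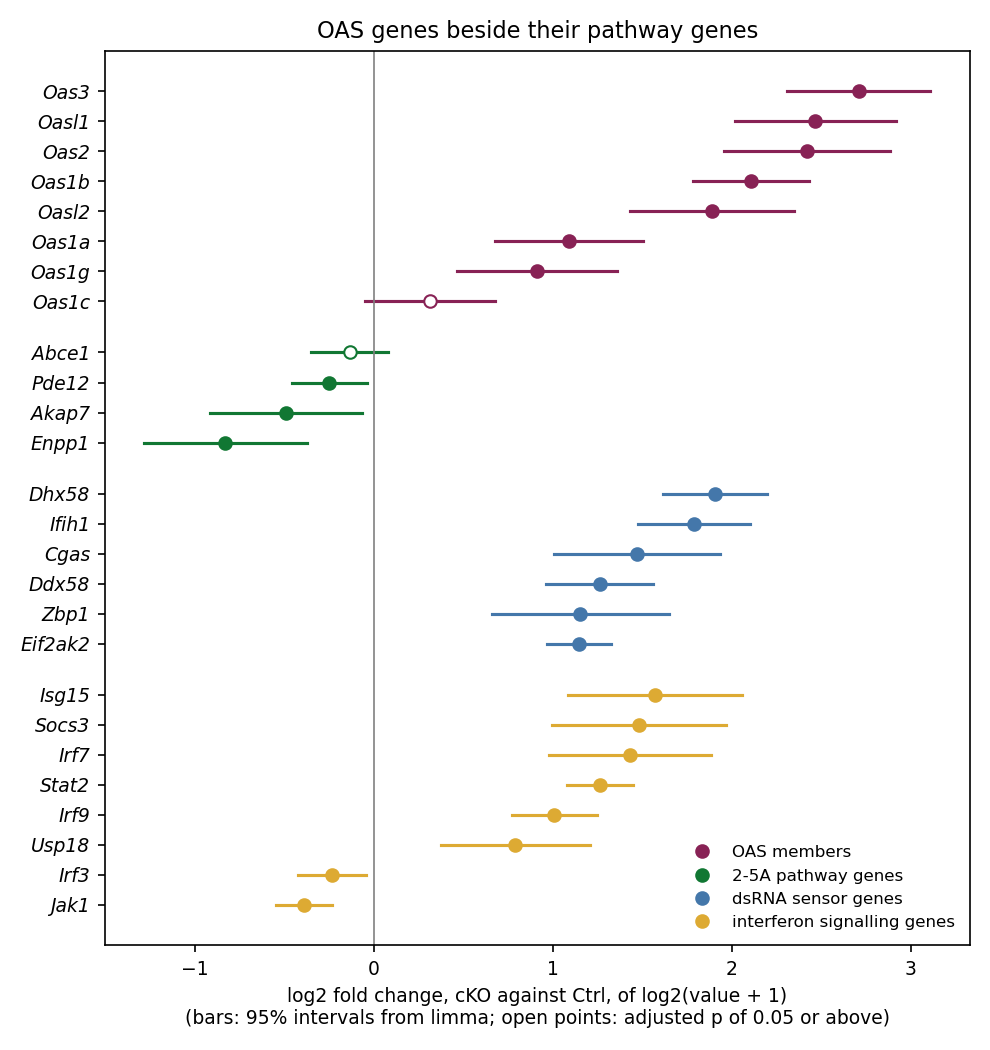
log2 fold changes of log2(value + 1), cKO-labelled against Ctrl libraries, with limma's 95% intervals, for the OAS genes and the named genes of 3 pathway lists. Filled points passed adjusted p of 0.05. The OAS genes reach from 0.32 (*Oas1c*) to 2.71 (*Oas3*), and the named list genes called higher lie between 0.79 and 1.91. The pseudocount of 1 lowers the values of genes with few reads in both. Without it the OAS genes reach from 0.36 (*Oas1c*) to 3.82 (*Oas1g*), and these list genes from 0.91 (*Usp18*) to 2.46 (*Isg15*).

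Other nucleic acid sensors, proteins that bind or edit double-stranded RNA and the adaptor MAVS act beside the OAS enzymes. Of the 14 genes of this list 13 had a row, 10 were called higher and none lower, beside 27.7% and 25.0% of all genes, with a median log2 fold change of 0.78. *Tlr3* was not analysed here. The cytosolic RNA helicases were among those that rose most, with *Dhx58* (LGP2) at 7.64 ± 0.59 in Ctrl and 31.5 ± 4.15 in cKO-labelled libraries (log2 fold change 1.91) and *Ifih1* (MDA5) at 5.51 ± 0.69 and 21.4 ± 0.28 (1.79). *Ddx58* (RIG-I) rose by 1.26, *Cgas*, the DNA sensor with an OAS-like fold, by 1.47, the Z-nucleic acid sensor *Zbp1* by 1.15 and the kinase *Eif2ak2* (PKR) by 1.15. Adjusted p-values of these 6 were at most 0.000436 (limma).

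Of 16 genes of interferon signalling 14 had a row, and *Ifnb1* and *Ifna4* were not analysed here. Of the 14, 10 were called higher and 2 lower, again beside 27.7% and 25.0% of all genes, and the median change was 0.68 on the log2 scale. Among the subunits of ISGF3, *Stat2* was at 46.3 ± 2.20 in Ctrl and 113 ± 7.27 in cKO-labelled libraries, a rise of 1.26 on the log2 scale, and *Irf9* was at 27.5 ± 3.26 and 56.4 ± 6.85, a rise of 1.01. *Irf7*, the factor that amplifies interferon production, rose by 1.43. The ubiquitin-like modifier *Isg15* rose by 1.57, its protease *Usp18* by 0.79 and the cytokine signalling inhibitor *Socs3* by 1.48. Adjusted p-values of these 6 were at most 0.00255 (limma). The kinase *Jak1* fell by 0.39 (adjusted p = 0.000271, limma) and *Irf3*, the factor activated by nucleic acid sensors, fell by 0.23 (adjusted p = 0.0389, limma). Scaled to total reads, neither passed (adjusted p = 0.0507 for *Jak1* and 0.791 for *Irf3*, limma). The call of *Irf3* was also lost without Ctrl 2, Ctrl 3, cKO 1 or cKO 3 (adjusted p 0.061 to 0.17, limma).

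The genes that flank the OAS clusters were described to see whether the region as a whole moved. Beside the *Oas1* to *Oas3* cluster, those with a row all lay on the *Oas2* side, so the flank beyond *Oas1a* was not covered. Of 19 other genes with a row within 200 kb of a member, 3 were called higher and 7 lower, and their median log2 fold change was 0.03. The counts stand beside 27.7% and 25.0% of all genes. With the total-read scaling, whose shift of the median is given above, 5 were called higher and 1 lower. The largest rises were those of *Slc8b1*, a mitochondrial cation exchanger, by 1.17 at a distance of 196308 bp from *Oas2*, and of *Tchp*, a keratin-binding protein of centrosomes, by 1.06 at 174598 bp from *Oasl2*. The nearest gene with a row to the *Oas1* to *Oas3* cluster was *Dtx1*, a regulator of Notch signalling 18465 bp from *Oas2*, which fell by 0.64. *Rpl37rt*, whose groups overlapped, fell by 0.71, *Ddx54*, an RNA helicase, by 0.60, and *2610524H06Rik* by 0.54. Adjusted p-values of these 6 were at most 0.0196 (limma). The falls of *Dtx1*, *Rpl37rt* and *2610524H06Rik* lost the call after scaling to total reads (adjusted p 0.0608 to 0.117, limma) and with some single libraries left out (adjusted p 0.053 to 0.107, limma). These libraries were Ctrl 3 and cKO 3 for *Dtx1*, Ctrl 2, cKO 1 and cKO 3 for *Rpl37rt*, and Ctrl 2, Ctrl 3 and cKO 1 for *2610524H06Rik*.

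**Figure D4:**
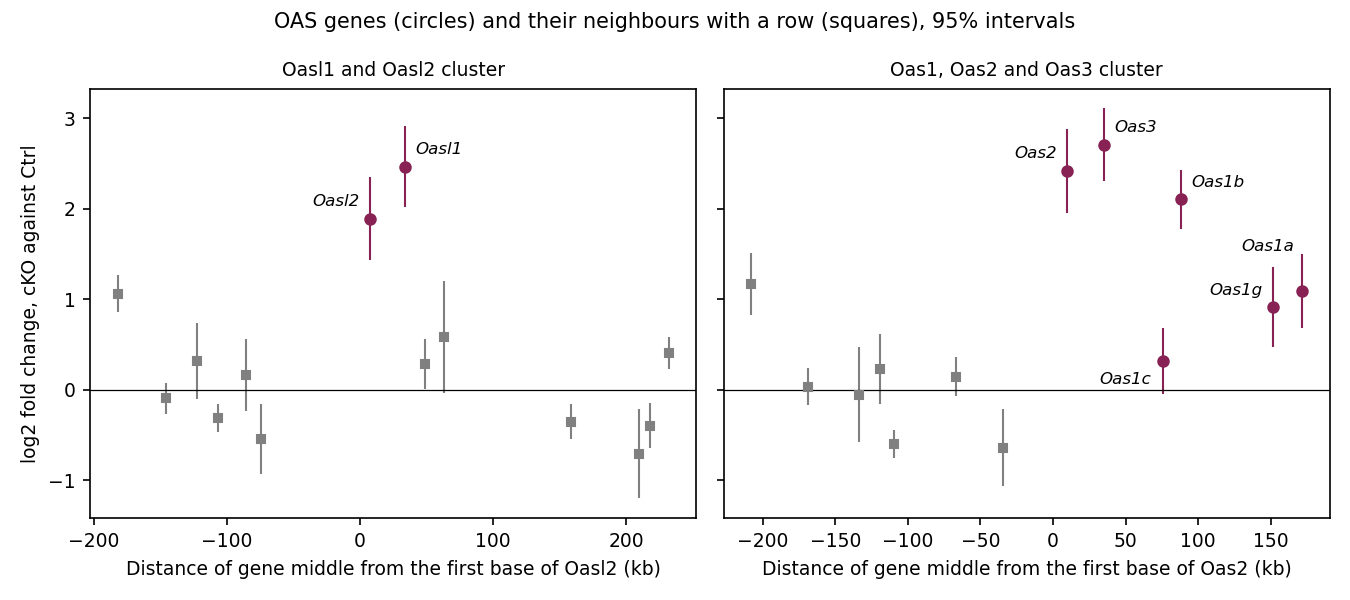
log2 fold changes (cKO-labelled against Ctrl, with 95% intervals) against the distance in kb of each gene's middle from the first base of *Oasl2* (left) and *Oas2* (right). OAS genes are circles and other genes with a row within 200 kb are squares. Of the circles 7 were called higher, and the median of the squares is 0.03. In the right panel the squares all lie on the *Oas2* side of the cluster.

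Across the 6 libraries, the correlation of each member with the mean profile of the others was between 0.73 (*Oas1c*) and 0.997 (*Oas3*), as Pearson's r of standardised log2 values. The genes outside the family most like the members' mean profile were *Sbf2* (r = 0.999), *Lgals3bp* (0.999), *Ackr2* (0.998), *Uvrag* (0.998) and *Rnf213* (0.998). *Rnf213*, an interferon-responsive ubiquitin ligase, was at 178, 160 and 165 normalised reads in Ctrl and 812, 620 and 724 in cKO-labelled libraries, and *Lgals3bp*, a secreted binder of galectins, at 8.55, 8.13 and 7.10 and then 31.5, 22.5 and 26.6. In both, cKO 1 was highest and cKO 2 lowest among the cKO-labelled libraries, as in *Oas1a*, *Oas2* and *Oas3*. With 2 groups of 3 libraries a clear gap between the groups gives a high r, and 1496 genes had r above 0.95, so these values are a description.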

How the data were processed

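Early LPre-B cells were profiled by RNA-seq of ribosomal RNA-depleted libraries. Per the submitters' processing notes, cutadapt 4.0, HISAT2, featureCounts 2.0.1 and limma 3.48.0 were used with build mm10, and alignment made no use of strand. The authors deposited, for every gene, a linear signal in each of the 6 libraries. Each value equals (reads + 0.5) divided by the effective library size in units of 1e6, and 100% of values gave whole reads within 0.05. Reads totalled 9732498 to 11006834 per library.

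Symbols and coordinates came from RefSeq GRCm38.p6 and transcript lengths from GENCODE M21. limma 3.58.1 in R 4.3.3 was run on log2(value + 1) over 13426 genes (eBayes with trend and robust estimation, group only, Benjamini-Hochberg), and called genes have an adjusted p below 0.05. Fold changes are on that scale, which understates low genes. It was tested on simulated data. Summed levels were compared by an exact two-sided permutation test. The study describes its replicates as biological and independent, and the labels do not tie libraries to single mice. No 2 libraries of a group agreed within sampling noise (chi-square over genes, 4.36 to 21.3 per degree of freedom).

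The members, lists and tests were chosen with earlier results of these data known. Named were all members, *Upf1*, all reported genes of the 2-5A list, at most 6 per other list by size of change among those called and any called lower, at most 6 called neighbours, and the 5 genes most like the members. *Cd79a*, *Ccr9*, *Cox6a2*, *Siglech*, *Smim5*, *Cd22*, *Ighd*, *Cr2*, *Fcer2a*, *Nkg7*, *Klf1*, *Apol9a* and *Apol9b* were named beyond this rule, after their values or matches were seen. Alternatives were edgeR 4.0.16, DESeq2 1.42.0 and voom on the recovered reads, other scalings, filters and pseudocounts, a replicate block and leaving out each library. Some genes of the pathway and marker lists are not reported here and were left out of their counts and sums.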

Additional observations from a re-analysis of the deposited data

How the results depend on the processing

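The 7 members called higher kept their direction and call under all 17 alternatives (16 for *Oas1g*, which the filter on a mean log2 value of at least 1 removes). The number that rose by 2 or more on the log2 scale, a count whose alternatives were chosen after seeing the data, ranged from 3 (median centred, quantile normalized) to 6 (edgeR, DESeq2, voom and smaller pseudocounts). The call of *Upf1* was lost by eBayes without trend (adjusted p = 0.0685, limma) and median centring (adjusted p = 0.0645, limma). Deviations of same-numbered libraries correlated at 0.082, -0.030 and -0.021, which shows no pairing but cannot exclude that libraries were collected in pairs. The deposited column headers give same-numbered Ctrl and KO libraries consecutive numbers. With the replicate block 7 members were called, 3668 genes were called higher and 3321 lower, and the log2 ratio of the summed level was 2.10 (exact p = 0.25, the smallest it allows). Not every library correlated best with its own number.

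For the 2-5A list the 3 became 1 with DESeq2 and with scaling to total reads, and 1 to 3 when 1 library was left out. For the interferon list the 2 became 1 by eBayes without trend, 0 with total reads and 1 to 3 with 1 library left out. For the sensor list the 0 became 1 after median centring and quantile normalization. Scaling to total reads gave 5 neighbours higher and 1 lower, and turned *Abce1* to 0.068 (adjusted p = 0.626, limma). That scaling moved the median of all genes from 0.01 to 0.19, with 72.8% of all calls higher against 52.6%, and 40.7% after median centring. Other causes were not tested. Depth limits *Oas1g* and *Oas2*, at 0 to 8 reads in Ctrl.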
